A study of Caenorhabditis elegans with 16 samples.

Results

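Whole worms fed atp-2 RNAi bacteria were compared at 54 hr and at 0 hr, to show how the 54 hr library differed under atp-2 RNAi. The comparison took 3 of the 16 libraries, which were chosen by their labels: replicates 2 and 3 at 0 hr, and the 1 library at 54 hr. All worms were of the wild-type strain N2 and were grown on HT115 Escherichia coli. The atp-2 RNAi groups at 0 hr and 54 hr both ate HT115 that expressed double-stranded RNA against atp-2, while the 9 control libraries came from worms fed HT115 with an empty vector. Worm age is not given, and neither is the event from which the hours were counted. Nor is it said whether 0 hr and 54 hr count from the same event. The terms "54 hr" and "0 hr" are therefore used here as labels, not as an order in time. The libraries held 46904 genes in TPM, a length-corrected share of each library's transcripts that keeps no record of depth, and the 13115 genes whose mean in the 3 libraries reached 1 TPM were compared.

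The gene atp-2 encodes the catalytic beta subunit of the mitochondrial ATP synthase, which makes ATP from the proton gradient that the electron transport chain builds. Most subunits of these complexes are encoded in the nucleus, and a small set, among them core subunits of complexes I, III and IV, is encoded in the mitochondrial genome. Worms that lose atp-2 are known to arrest as larvae, and damage to the chain is known to induce mitochondrial chaperones, detoxification enzymes and some immune genes.

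The 54 hr library had been made into a table separate from that of the 0 hr libraries, and it had no replicate. Table and time can therefore not be told apart. The 54 hr group has no spread of its own to test against, so differences are described without a test, and a gene was called only where the 54 hr library lay at least 2-fold above or below each of the 0 hr libraries on the TPM + 1 scale. Nothing in the labels says that the 0 hr replicates came from separate cultures. Values are TPM, and differences are log2(TPM + 1) at 54 hr minus the mean at 0 hr, a scale that understates the change of low genes.

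The target was lower than in every control in all 3 libraries, and was highest of the 3 at 54 hr. The gene lies on the plus strand of chromosome III from 5228417 to 5230536 in WBcel235 (WBGene00000229). Its transcript had 110 and 136 TPM at 0 hr and 431 TPM at 54 hr, a log2 difference of 1.81. At 20 hr of atp-2 RNAi atp-2 stood at 197 and 172 TPM, at 24 hr at 1043 TPM and at 36 hr at 736 TPM. The 54 hr level of atp-2 thus lay above the 0 hr and 20 hr RNAi libraries and below those of 24 hr and 36 hr. In controls atp-2 ranged from 1389 TPM to 2607 TPM.

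Few genes separated the 54 hr library from both 0 hr libraries. Of the 13115 genes, 50 were called higher (0.381%) and 233 lower (1.78%), 2.16% in all, while 12832 were not called. These shares are the background for every count of calls in a gene list below. The median difference over all genes was -0.08, and 90% of genes, between the 5th and the 95th percentile, lay between -0.90 and 0.49. A mean difference of at least 4-fold was found for 7 genes called higher and 48 called lower, and one of at least 16-fold for 1 and 7 genes.

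**Figure D1:**
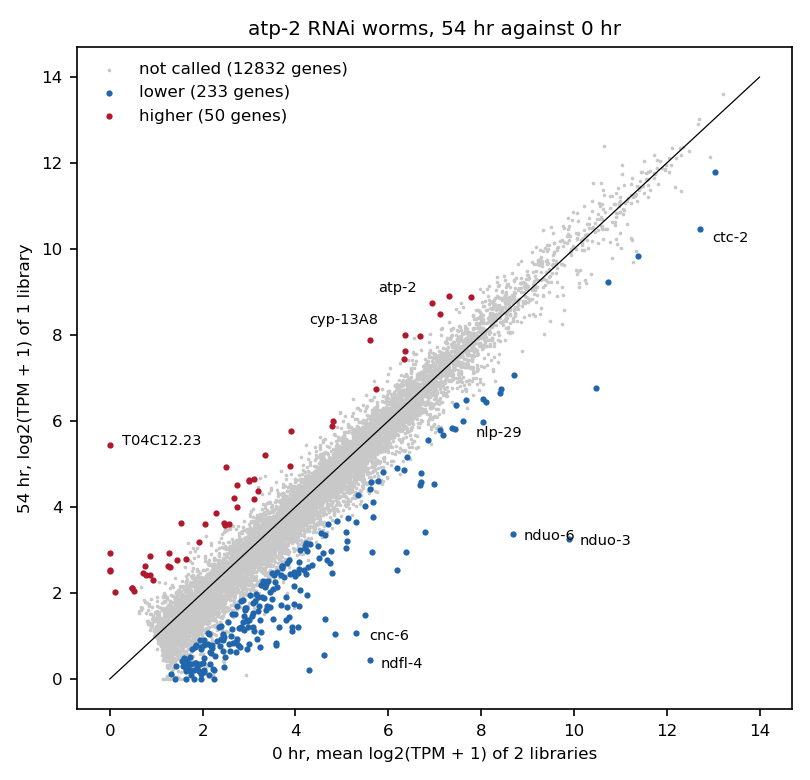
Each point is 1 of the 13115 genes. The x axis is the mean log2(TPM + 1) of the 2 atp-2 RNAi libraries of 0 hr and the y axis is log2(TPM + 1) of the 54 hr library, and the black line marks equal levels. The 50 genes called higher are red and the 233 called lower are blue, and nduo-3 and nduo-6 lie farthest below the line.

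The 54 hr library was as close to one 0 hr replicate as the replicates were to each other. Replicates 2 and 3 of 0 hr were at least 2-fold apart in 461 genes, and the 54 hr library was that far from replicate 3 in 445 genes (89 higher, 356 lower) and from replicate 2 in 1000 genes (195 higher, 805 lower). It was 2-fold from the 20 hr libraries in 1496 and 1261 genes, from the 24 hr library in 1587 and from the 36 hr library in 1370. By this count the RNAi library closest to 54 hr was a 0 hr library, although the 24 and 36 hr libraries are also from unreplicated tables. The count of calls, 50 higher and 233 lower, depends on both replicates. Against replicate 3 alone 89 and 356 genes would be called, and against replicate 2 alone 195 and 805.

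**Figure D2:**
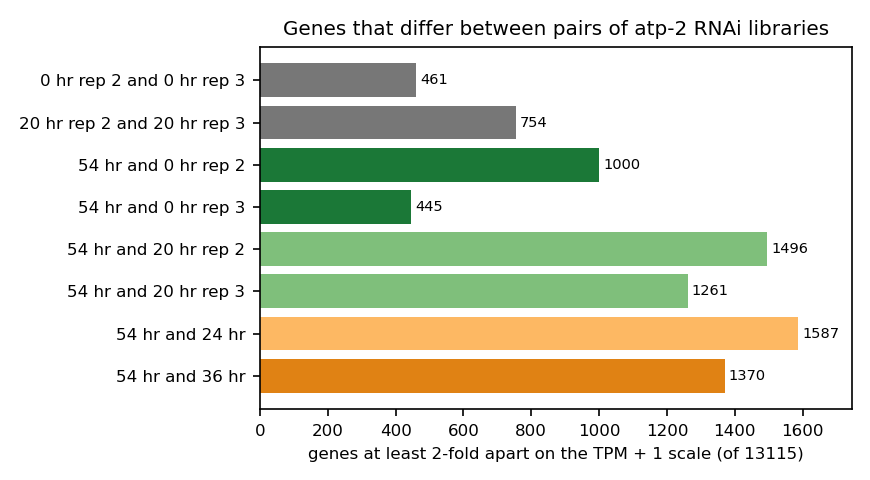
Bars give the number of genes, of the 13115 compared, that lay at least 2-fold apart on the TPM + 1 scale between 2 atp-2 RNAi libraries. Grey bars are replicate pairs of 1 time, and coloured bars set the 54 hr library against each of the other 6; the bar for 54 hr and 0 hr replicate 3 (445 genes) is the shortest.

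Control worms differed far more between the same pair of tables. By the same rule, 2185 of 13531 genes were higher in the 48 hr control than in each of the 3 controls of 0 hr (16.1%) and 3482 were lower (25.7%), 41.9% in all. Both comparisons come from the same pair of tables and share no library. Of the 166 genes lower under atp-2 RNAi that could be compared in controls, 75 were also lower there, 37 were higher and 54 were neither. Of the 35 higher genes that could be compared, 16 were also higher in controls, 8 were lower and 11 neither.

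Among called genes, the 54 hr library often lay at the edge of the atp-2 RNAi libraries. It lay below all 4 RNAi libraries of 20, 24 and 36 hr for 130 of the 233 genes called lower (55.8%, against 11% of all genes compared). It lay above all 4 for 32 of the 50 called higher (64%, against 15.5%). The calls were made on the same 54 hr values, so these higher shares follow in part from the rule itself. As a view of what the tables share, the other 13 libraries were split into the 5 from unreplicated tables and the 8 from replicated ones. The former lay wholly below the latter for 16 of the 233 lower genes (6.87%, against 7.27% of all genes), and wholly above for 4 of the 50 higher genes (8%, against 4.19%). Called genes were shorter and less abundant than the rest: the median locus spanned 1140.5 bases for higher and 1128 bases for lower genes against 2472 bases for genes not called, and the median of mean levels was 8.03 and 7.22 TPM against 17.9 TPM.

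The transcripts farthest below their 0 hr level came from the mitochondrial genome. Of its 12 protein genes, 8 were called lower, against 1.78% of all genes. All 12 lay lower at 54 hr, with a median difference of -1.52 against -0.08 over all genes. Together they made up 4.01% and 4.39% of all TPM at 0 hr and 1.76% at 54 hr. The genes of complex I, the NADH dehydrogenase at the entry of the chain, led the list.

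The subunit gene nduo-3 (WBGene00010966, mitochondrial genome, 11356 to 11691) stood at 844 and 1063 TPM at 0 hr and 8.54 TPM at 54 hr, a difference of -6.63. For nduo-6, another complex I subunit, the values were 306 and 558 TPM against 9.43 TPM (-5.31). The gene ndfl-4, which encodes the small ND4L subunit, had 42.1 and 54.7 TPM against 0.362 TPM (-5.17). In each of these 3 genes the 54 hr value was a small fraction of either 0 hr value. The complex I gene nduo-2 stood at 1232 and 1626 TPM against 108 TPM (-3.70). The cytochrome c oxidase genes ctc-2 and ctc-3 stood at 6394 and 6993 against 1403 TPM (-2.25) and at 8369 and 8410 against 3550 TPM (-1.24). The remaining called genes were nduo-1 (-1.55) and nduo-5 (-1.49), also of complex I. Not called were nduo-4 (-1.0), the ATP synthase gene atp-6 (-0.95), the cytochrome b gene ctb-1 (-0.79) and the oxidase gene ctc-1 (-0.73). Of the non-coding genes of this genome, 8 of 16 tRNA genes and 2 of 2 rRNA genes were also called lower, so that 18 of the 233 lower calls were mitochondrial.

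Low mitochondrial transcripts were not limited to 54 hr. The protein genes summed to 3.78% and 3.85% of TPM in the 20 hr RNAi libraries but to 0.969% at 24 hr and 1.25% at 36 hr. In controls they summed to 1.51 to 1.79% at 0 hr, 0.964 to 1.20% at 20 hr, and 0.520%, 0.458% and 0.714% at 24, 36 and 48 hr. Within each treatment the libraries of the unreplicated tables were thus the low ones, and the 54 hr library was the highest of those 6. For nduo-3 the RNAi libraries had 720 and 809 TPM at 20 hr, 2.75 TPM at 24 hr and 4.09 TPM at 36 hr. The controls had 322 to 337 TPM of nduo-3 at 0 hr, 150 to 175 TPM at 20 hr and at most 0.470 TPM from 24 to 48 hr. The control median over these 12 genes, 48 hr against 0 hr, was -1.59, with 7 called lower, against 25.7% of all genes. Whether these differences belong to time or to how each table was made cannot be told apart.

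**Figure D3:**
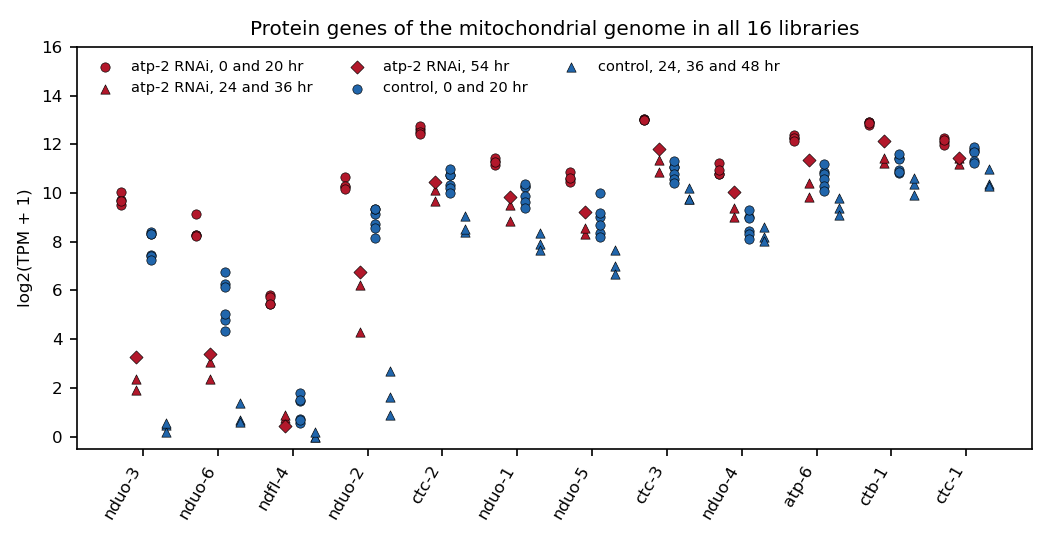
Points give log2(TPM + 1) of the 12 protein genes of the mitochondrial genome in all 16 libraries, ordered by their difference between 54 hr and 0 hr; red is atp-2 RNAi and blue is control. Circles are the replicated tables (0 and 20 hr), triangles the unreplicated tables and the diamond the 54 hr library; for nduo-3, nduo-6 and nduo-2 every triangle and diamond lies below every circle.

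The nuclear partners of these genes were not called. None of 17 nuclear ATP synthase genes other than atp-2 (median 0.25), none of 35 nuclear electron transport chain genes (median 0.16) and none of 44 genes of glycolysis, gluconeogenesis and the TCA cycle (median 0.31) passed the rule. With 2.16% of all genes called, few or no calls would be expected in lists of this size. Of 81 cytosolic ribosomal protein genes, rpl-37 alone was called, at 251 and 274 TPM against 89.7 TPM (-1.54). For rpl-37 the other unreplicated libraries lay at 102 to 117 TPM and the replicated ones at 219 to 313 TPM, in both treatments. Its level thus separates 0 and 20 hr from the other labels, and replicated from unreplicated tables alike.

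Genes for epidermal antimicrobial peptides formed the largest group of lower nuclear genes among the lists examined. These small secreted peptides, among them those of the nlp-29 and cnc-2 clusters, are made by the epidermis. Members are known to be induced by fungal infection and wounding. Of the 21 measured (of 22), 12 were called lower (against 1.78% of all genes) and none higher, with a median of -1.39. The 54 hr library lay below all 4 RNAi libraries of 20, 24 and 36 hr in 13 of the 21 (against 11% of all genes). In none of them did the other 13 libraries separate by table, a split that takes control and RNAi libraries together. For cnc-6, cnc-1 and cnc-11 a control of 0 or 20 hr was listed at 0, so that split could not find them lower. Within atp-2 RNAi alone, cnc-6, cnc-1 and cnc-11 lay lower at 24, 36 and 54 hr than at 0 and 20 hr. In these genes table and time cannot be told apart. Several are close paralogues, and no source used here says how reads were split between such copies.

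The caenacin genes, the cnc family, included those with the largest differences. Levels of cnc-6 were 61.5 and 24.3 TPM at 0 hr and 1.09 TPM at 54 hr (-4.25), those of cnc-1 were 26.1 and 21.8 against 1.65 TPM (-3.23), and those of cnc-11 were 11.3 and 17.7 against 1.17 TPM (-2.81). These 3 were also low in the RNAi libraries of 24 and 36 hr, where cnc-6 stood at 3.06 and 0.937 TPM, and no control passed 3.06 TPM of cnc-6. The gene cnc-4 had 126 and 81.9 TPM against 22 TPM (-2.16), and 44.4 to 130 TPM in the other 4 RNAi libraries. The 54 hr library was therefore the lowest of the 7 for cnc-4.

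In the 3 nlp genes with the largest differences the 54 hr library again stood lowest. The gene nlp-29, whose induction is the usual readout of epidermal infection, stood at 215 and 175 TPM at 0 hr and 63.3 TPM at 54 hr (-1.60), with 184 to 287 TPM at 20, 24 and 36 hr. For nlp-34 the values were 146 and 72.1 against 26.6 TPM (-1.91), and 55.2 to 187 TPM in the other 4. For nlp-25 they were 41.5 and 17.2 against 4.52 TPM (-2.33). All other RNAi libraries lay above the 54 hr library in these 3 genes. The other called members were cnc-2, nlp-28, nlp-30, nlp-31 and nlp-32, at -1.65 to -1.18. Among those not called, nlp-33 stood at 864 and 494 against 258 TPM, just inside 2-fold of replicate 3, while cnc-8 stood at 89.1 and 80.6 against 93.3 TPM (0.14).

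The summed level of these 22 genes was 2917 and 1928 TPM at 0 hr and 1040 TPM at 54 hr. In the other 4 RNAi libraries it was 1899 to 3244 TPM. In controls it was 160 to 897 TPM at 0 and 20 hr and 1014 to 2249 TPM from 24 to 48 hr. The 54 hr sum was the lowest under atp-2 RNAi and lay near that of the 48 hr control (1014 TPM). In controls, 5 of 14 measured members were higher at 48 hr than at 0 hr and 3 lower, against 16.1% and 25.7% of all genes. Levels of 14 epidermis markers (none called, median 0.05) summed to 4530 and 3109 TPM at 0 hr and 3262 TPM at 54 hr.

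Contractile genes of the pharynx, the muscular pump that draws bacteria into the gut, were among those called lower. Of 9 measured pharynx markers (of 11), 5 were called lower (against 1.78% of all genes) and none higher, with a median of -1.52. In 8 of the 9 the 54 hr library lay below all 4 RNAi libraries of 20, 24 and 36 hr (against 11% of all genes). None of the 9 separated by table in the other libraries. In controls, 4 of 10 measured markers were higher at 48 hr than at 0 hr and 3 lower, against 16.1% and 25.7% of all genes. The 11 markers summed to 127 and 104 TPM at 0 hr, 65.3 TPM at 54 hr and 76.3 to 162 TPM in the other 4 RNAi libraries, and to 29.9 to 153 TPM in controls. At 54 hr phat-4 alone was listed at 0. In bulk RNA, fewer cells of a type and less RNA per cell cannot be told apart.

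The pharyngeal troponin I gene tni-4 stood at 14.6 and 12.7 TPM at 0 hr and 1.73 TPM at 54 hr (-2.42). It had 10.8 and 12.8 TPM at 20 hr, 18.6 TPM at 24 hr and 9.89 TPM at 36 hr, and all controls lay at 8.86 to 46.2 TPM. So the 54 hr value of tni-4 was the lowest of all 16 libraries. The troponin C gene tnc-2 stood at 7.62 and 5.48 against 1.19 TPM (-1.77), and at 4.09 to 5.53 TPM in the other 4 RNAi libraries. The pharyngeal myosin heavy chain gene myo-2 stood at 9.92 and 10.7 against 2.62 TPM (-1.64), and at 6.99 to 17.8 TPM in the other 4. For tnc-2 and myo-2 alike, the 54 hr library was the lowest of the RNAi libraries. The myosin genes myo-1 (7.76 and 8.72 against 2.25 TPM) and myo-5 (3.86 and 3.05 against 0.546 TPM) were the other members called, at -1.51 and -1.52. In controls tni-4 (-1.78) and tnc-2 (-1.54) were also called lower at 48 hr against 0 hr, while myo-2 was called higher (3.64).

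Outside the list, and singled out after their values were seen, tnt-4, a pharyngeal troponin T gene, had 12.7 and 17.1 against 4.58 TPM (-1.50), and inx-6, a gap junction gene of pharyngeal muscle, had 1.77 and 1.64 against 0.239 TPM (-1.13). Not all pharynx genes were called lower, although 8 of the 9 measured markers had a difference below 0. The organ identity factor gene pha-4 lay lower without passing the rule, at 46.0 and 31.4 against 25 TPM (-0.59). For eat-20 the difference was 0.21. Contractile genes of body wall muscle lay above their 0 hr level without passing the rule: none of 15 was called, the median was 0.49, and their sum was 8208 and 10611 TPM at 0 hr and 14983 TPM at 54 hr. In 13 of those 15 the other unreplicated libraries lay wholly above the replicated ones.

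A further family, listed after its values were seen, was the glutamine-rich abu and pqn genes, several of which are known from the pharynx. Of 46 measured, 6 were lower (against 1.78% of all genes) and none higher (median -0.16). The largest were pqn-74, at 8.22 and 3.69 against 0.550 TPM (-2.08), pqn-75, at 8.90 and 3.94 against 0.683 TPM (-2.06), and pqn-31, at 7.16 and 4.45 against 0.915 TPM (-1.80). In all 3 the 54 hr library was the lowest of the 7 RNAi libraries. With so few TPM, the calls of pqn-74, pqn-75, pqn-31, tnc-2 and myo-2 were lost with a pseudocount of 5.

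**Figure D4:**
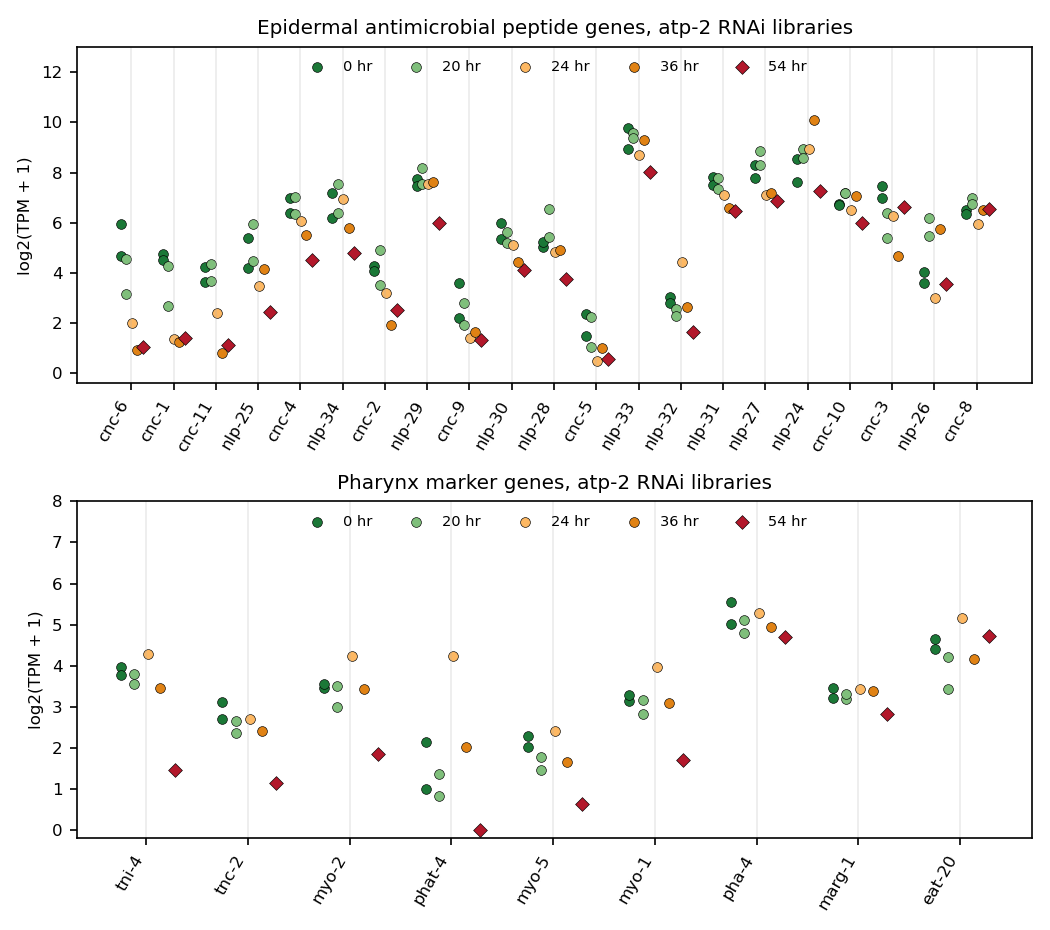
Points give log2(TPM + 1) in the 7 atp-2 RNAi libraries, coloured by time, for the 21 measured epidermal antimicrobial peptide genes (upper panel) and the 9 measured pharynx markers (lower panel), ordered by their difference between 54 hr and 0 hr. The red diamond (54 hr) is the lowest point in 13 of the 21 peptide genes against the 20, 24 and 36 hr libraries, and in 8 of the 9 pharynx genes.

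A few genes of detoxification were among those higher at 54 hr. Of 62 measured cytochrome P450 genes, whose enzymes oxidise foreign and endogenous lipophilic compounds, 3 were called higher (against 0.381% of all genes) and none lower. The median of this list was 0.09. The gene cyp-13A8 stood at 57.5 and 114 TPM at 0 hr and 256 TPM at 54 hr (1.65). It had 107 and 133 TPM at 20 hr but 4.06 TPM at 24 hr and 12.6 TPM at 36 hr. No control passed 1.12 TPM of cyp-13A8, so the 54 hr library held the highest level of the 16. The gene cyp-14A4 stood at 90.7 and 113 against 250 TPM (1.30), with 14.5 and 25.6 TPM at 24 and 36 hr and at most 1.67 TPM in controls. The third, cyp-35C1, had 7.18 and 9.32 against 19.8 TPM (1.18), a call lost with a pseudocount of 5. In controls cyp-35C1 was higher too, at 46.8 TPM at 48 hr against 6.71 to 7.87 TPM at 0 hr.

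One glutathione S-transferase gene and one drug exporter gene showed the same order of libraries. Of 42 measured transferase genes only gst-7 was called (against 2.16% of all genes), at 113 and 166 TPM against 358 TPM (1.38). It had 125 and 131 TPM at 20 hr, 47.3 TPM at 24 hr and 53.8 TPM at 36 hr. Of 14 measured pgp genes, which encode ABC transporters and were listed after their values were seen, only pgp-1 was called (against 2.16% of all genes). It stood at 73.5 and 90.4 against 198 TPM (1.27), with 34.7 and 33.4 TPM at 24 and 36 hr. In controls pgp-1 was higher too, at 62.5 TPM at 48 hr against 2.98 to 5.09 TPM at 0 hr, while gst-7 was not called (-0.08). In cyp-13A8, cyp-14A4, gst-7 and pgp-1 alike, the 54 hr RNAi library lay above those of 0 and 20 hr. The RNAi libraries of 24 and 36 hr lay below all of these. Of 57 measured genes for UDP-glucuronosyltransferases, which conjugate such compounds, none was higher. With 0.381% of all genes called higher, no call would be expected in a list of this size. Lower were ugt-30 (1.79 and 2.55 against 0.232 TPM) and ugt-51 (16.5 and 19.6 against 6.88 TPM), against 1.78% of all genes.

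The mitochondrial unfolded protein response, which sends a signal from stressed mitochondria to nuclear chaperone genes, gave 1 call. Of 28 measured genes only cyp-14A4 passed the rule, and the median was 0.06. The mitochondrial chaperone gene hsp-6 stood at 693 and 778 against 793 TPM, and hsp-60 at 360 and 387 against 387 TPM. The beta-tubulin gene tbb-6, known to be induced by mitochondrial stress, stood at 299 and 574 against 426 TPM, with 18.1 TPM at 24 hr and 118 TPM at 36 hr. For these 3 genes, named outside the rule, the 54 hr library lay within or next to the range of the 0 hr replicates. None of 21 endoplasmic reticulum stress genes and none of 22 antioxidant genes was called. Among the latter, sod-3, a manganese superoxide dismutase gene, had 10.5 and 29.4 against 42.5 TPM. Of 23 small heat shock and HSP70 genes, hsp-16.41 was lower, at 8.39 and 8.0 against 2.73 TPM (-1.30), and the median was -0.56.

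**Figure D5:**
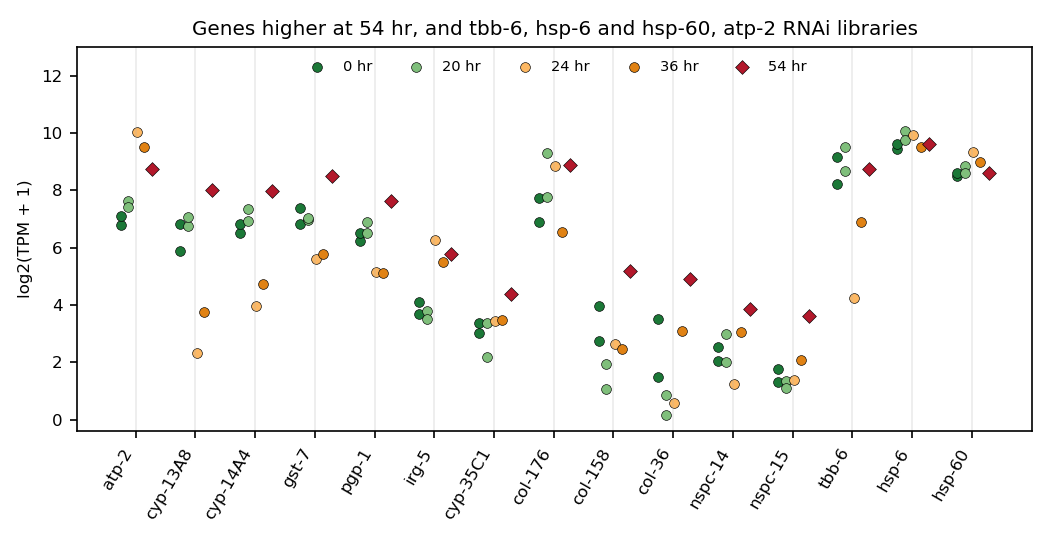
Points give log2(TPM + 1) in the 7 atp-2 RNAi libraries, coloured by time, for 12 genes called higher at 54 hr and for tbb-6, hsp-6 and hsp-60, which were not called. In cyp-13A8, cyp-14A4, gst-7 and pgp-1 the 54 hr diamond is the highest point and the 24 and 36 hr points are the lowest.

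Few immune genes other than the epidermal peptides were called. The gene irg-5, known to be induced by bacterial infection, stood at 11.8 and 16.4 TPM at 0 hr and 53.7 TPM at 54 hr (1.87). Its level was 76.0 and 44.0 TPM in the RNAi libraries of 24 and 36 hr and 72.2 to 77.7 TPM in the controls of 24 to 48 hr, against at most 12.8 TPM in all other replicated libraries, so irg-5 too separates by table and by time alike in both treatments. The gene dod-20, known as a target downstream of the insulin pathway, stood at 3.88 and 7.31 against 17.4 TPM (1.53). In controls dod-20 was higher too (1.54), and its call under atp-2 RNAi was lost with a pseudocount of 5. The invertebrate lysozyme genes ilys-3 (63.9 and 11.8 against 1.08 TPM, -3.79) and ilys-2 (7.83 and 1.58 against 0.163 TPM, -2.04) were the called members of 27 lysozyme and saposin-like genes. In both lysozyme genes the 0 hr replicates were themselves far apart. Of 74 C-type lectin genes, clec-45 (9.94 and 9.01 against 2.23 TPM), clec-82 (7.45 and 7.64 against 1.92 TPM) and clec-52 (52.2 and 44.1 against 20.5 TPM) were lower. Of 28 pals genes, known from the response to intracellular infection, none was called, with a median of -0.83. For comparison with these lists, 1.78% of all genes were called lower.

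Small families of nematode peptides also differed. These lists were made after their values were seen. Of 14 measured nspc genes (of 20), 8 were higher (against 0.381% of all genes) and none lower, with a median of 1.21. The 54 hr library lay above all 4 RNAi libraries of 20, 24 and 36 hr in 11 of the 14 (against 15.5% of all genes). The gene nspc-15 stood at 1.49 and 2.38 against 11.4 TPM (2.10), nspc-14 at 3.18 and 4.78 against 13.6 TPM (1.57) and nspc-13 at 0.782 and 0.886 against 4.36 TPM (1.55). The calls of nspc-13 and nspc-14 were lost with a pseudocount of 5. In controls 17 of 18 measured nspc genes were lower at 48 hr than at 0 hr, against 25.7% of all genes. Of 7 measured fipr genes, 3 were lower (against 1.78% of all genes), among them fipr-2 at 13.3 and 12.6 against 1.60 TPM (-2.43). All 4 measured nspe genes were lower (against 1.78% of all genes), with nspe-1 at 14.4 and 7.46 against 1.62 TPM (-2.12). Members of the nspc and nspe families are also close paralogues.

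Cuticle collagens, whose sets change with each larval stage, were called in both directions. Of 139 measured, 5 were higher and 9 lower, against 0.381% and 1.78% of all genes, and the median was -0.66. The higher ones included col-36, at 1.81 and 10.5 against 29.3 TPM (2.41), col-158, at 5.67 and 14.6 against 35.8 TPM (1.85), and col-176, at 117 and 211 against 476 TPM (1.59). In col-36 and col-158 the 54 hr library was the highest of the 16. The blister collagen genes bli-1 and bli-6, which build struts of the adult cuticle, were called from low levels, at 0.265 and 0.529 against 3.31 TPM and at 1.73 and 1.13 against 6.66 TPM, while the 48 hr control held 393 TPM of bli-1 and 2279 TPM of bli-6. The gene col-122 was lower, at 9.27 and 14.4 against 1.33 TPM (-2.43), as was col-181, at 5.29 and 10.8 against 1.16 TPM (-1.99). Levels of col-122 reached 4546 to 5781 TPM in controls of 0 hr and 710 TPM in the 48 hr control, so all 3 compared libraries lay far below those controls. The control median over 139 collagens was 3.62, with 89 higher and 29 lower, against 16.1% and 25.7% of all genes.

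The rest of the cuticle programme gave few calls. None of 16 body shape and furrow collagens (median -0.60), none of 29 molting and apical matrix genes (median -0.12), none of 22 molting cycle and stage timing regulators (median 0.14) and none of 62 hedgehog-related and patched-related genes (median -0.32) was called. Of 23 cuticlin genes, cut-2 stood at 635 and 274 against 132 TPM (-1.65) and cutl-14 at 6.94 and 5.68 against 1.51 TPM (-1.54). In controls, 23 of 28 molting and apical matrix genes and 15 of 16 body shape and furrow collagens were higher at 48 hr than at 0 hr, against 16.1% of all genes. Neither list gave a call under atp-2 RNAi, where 2.16% of all genes were called against 41.9% in controls.

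Neuronal genes, the stated interest of the study in learning and memory, gave few calls. None of 45 learning and memory genes (median 0.07), none of 33 synaptic vesicle genes (median 0.01), none of 15 genes for neuropeptide processing and dense-core vesicles (median 0.02), none of 31 acetylcholine and GABA genes (median -0.11), none of 34 genes of glutamate and amine transmission (median -0.16) and none of 26 sensory transduction genes (median 0.13) was called. The 14 neuron markers summed to 1374 and 1326 TPM at 0 hr and 1439 TPM at 54 hr. The calls were of peptide genes. Of 30 FMRFamide-like peptide genes, 3 were lower, against 1.78% of all genes. The gene flp-1 stood at 10.8 and 4.89 against 1.77 TPM (-1.59), flp-19 at 7.45 and 5.84 against 2.13 TPM (-1.28) and flp-32 at 8.82 and 8.41 against 3.58 TPM (-1.07). In all 3 the 54 hr library was the lowest of the 7 RNAi libraries. Of 52 other neuropeptide-like genes nlp-42 was lower (2.54 and 2.10 against 0.429 TPM), a share near the 1.78% of all genes called lower. Of 11 insulin-like peptide genes, ins-20 was lower (3.66 and 1.68 against 0.151 TPM). With quantile normalization flp-1, flp-19, flp-32, nlp-42 and ins-20 were no longer called. In controls flp-1 (-3.74), flp-19 (-1.29), flp-32 (-1.63) and nlp-42 (-2.08) were also called lower at 48 hr against 0 hr. There ins-20 was too low to be compared.

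Yolk and major sperm protein transcripts were nearly absent at both times. Under atp-2 RNAi the 6 yolk protein genes summed to 0.670 and 0.936 TPM at 0 hr and 0.352 TPM at 54 hr. In controls their sum was 7022 to 10210 TPM at 0 hr and 7253 to 24122 TPM at 20 hr. It was 0.629, 0.860 and 1888 TPM in the controls of 24, 36 and 48 hr. Whether the hours of all libraries run from the same event was not tested. Only 2 of 35 major sperm protein genes reached the mean of 1 TPM. Of 44 other sperm genes, 7 reached it and none was called, and all 44 summed to 128 and 165 TPM at 0 hr and 169 TPM at 54 hr. None of 19 measured eggshell and oocyte genes was called. Of 39 genes of germline proliferation, meiosis and germ granules, 3 were lower (against 1.78% of all genes) and the median was -0.52. The Piwi gene prg-1, which acts with germline piRNAs, stood at 24.7 and 25.5 against 11.1 TPM (-1.10), and the synaptonemal complex genes syp-1 and syp-4 stood at 6.03 and 5.01 against 1.86 TPM (-1.18) and at 2.88 and 2.83 against 0.883 TPM (-1.03). The calls of prg-1, syp-1 and syp-4 were all lost with quantile normalization and with a pseudocount of 5. All 3 also lay low in the RNAi libraries of 24 and 36 hr, at 0.407 to 8.54 TPM, and high in the controls of 0 hr, at 62.5 to 139 TPM. None of 41 replication and cell cycle genes was called (median -0.18), and of 60 histone genes his-6 was lower, at 8.16 and 5.09 against 1.77 TPM (-1.43), with a median of -0.60.

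Among regulators and metabolic genes, calls were single genes, and the nuclear hormone receptors were called about as seldom as all genes (0.381% higher, 1.78% lower). Of 193 nuclear hormone receptor genes, nhr-155 was higher, at 4.64 and 4.43 against 11.3 TPM (1.15), and nhr-61 and nhr-53 were lower, at 147 and 139 against 50.1 TPM (-1.50) and at 18.5 and 17.1 against 7.95 TPM (-1.07). The calls of nhr-155 and nhr-53 were lost with a pseudocount of 5. Levels of nhr-61 were 148 and 129 TPM at 20 hr, 77.1 TPM at 24 hr, 48.1 TPM at 36 hr and 7.26 to 23.7 TPM in controls, so it was above every control in all RNAi libraries. Of 35 genes of fat oxidation and lipolysis, the carnitine palmitoyltransferase gene cpt-4 was lower, at 78.4 and 66.3 against 29 TPM (-1.28). None of 22 fat synthesis genes and none of 32 proteasome genes was called, and none of 14 intestine markers. The gene ddn-1 was lower, at 57.0 and 3.75 against 1.32 TPM (-2.84), with the 0 hr replicates wide apart.

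Genes without a common symbol gave the largest difference among the higher genes. The non-coding RNA gene T04C12.23 (chromosome V, 11078682 to 11078751) was listed at 0 in both 0 hr libraries and at 42.5 TPM at 54 hr. It was also listed at 0 in the other 8 replicated libraries and at 36 hr of RNAi, at 43.3 TPM at 24 hr, and at 34.1, 83.3 and 103 TPM in the controls of 24, 36 and 48 hr. All its signal thus lay in libraries labelled 24 to 54 hr, which are those of the unreplicated tables. The gene Y51F10.7 stood at 19.8 and 112 against 236 TPM (2.29). Lower were K01A6.4, at 28.5 and 11.9 against 0.152 TPM (-4.08), and Y38E10A.14, at 21.0 and 26.5 against 0.463 TPM (-4.07). The 54 hr library was the lowest of all RNAi libraries for K01A6.4 and the lowest of all 16 libraries for Y38E10A.14.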

How the data were processed

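Per the labels' protocols, GENEzol served for RNA extraction from whole worms and a SureSelect kit for strand-specific libraries. The submitters' processing notes name the build WBcel235 and the tools bcl2fastq 2.20, TopHat and Cufflinks. No source used here gives the other versions, the annotation release or the strand setting. The authors deposited TPM per library, in 5 tables made separately, per the file headers; 0.0001, the value listed for no signal, was set to 0. Coordinates are those of the deposited tables. Depth is unknown, so no counting interval could be given.

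Samples were grouped by their titles. Genes whose mean in the 3 libraries reached 1 TPM were compared on log2(TPM + 1) by the 2-fold rule, with no test; the rule and limma were tested on simulated data. The same rule was applied to the control library of 48 hr and the 3 controls of 0 hr. The members and gene lists were chosen with earlier results of these data known, and 5 of 56 lists were added after these values were seen. Genes named were atp-2, the 10 largest called differences per direction with a symbol and at least 10 TPM in the higher group, the 3 largest of each list described, and the 2 largest per direction without a symbol; others were named after their values were seen. The plan allowed for counts, and the files hold TPM. Alternatives were pseudocounts of 0.1 and 5, other filters, scalings and fold rules, leaving out each 0 hr library, and limma over all 16 libraries. Python 3.11.15 with pandas 2.3.3, numpy 2.4.6 and matplotlib 3.10.9, and limma 3.58.1 in R 4.3.3, were used.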

Additional observations from a re-analysis of the deposited data

Results flagged for a closer look

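For 11 named genes the 54 hr library lay past 2-fold on one side of both 0 hr libraries under atp-2 RNAi, while the 48 hr control lay past 2-fold on the opposite side of all 3 controls of 0 hr. None of these differences between treatments was tested, and the tables, the hours (54 against 48) and the treatment differ together. Lower under atp-2 RNAi and higher in controls, as log2 differences, were pqn-74 (-2.08, control 6.0), cut-2 (-1.65, control 8.57), the pharyngeal myosin gene myo-2 (-1.64, control 3.64), cutl-14 (-1.54, control 1.71), his-6 (-1.43, control 2.35), cpt-4 (-1.28, control 4.50), ugt-51 (-1.27, control 1.57) and clec-52 (-1.19, control 1.68). Higher under atp-2 RNAi and lower in controls were nspc-13 (1.55, control -1.89), nspc-14 (1.57, control -3.23) and nspc-15 (2.10, control -2.25). No group here had 4 or more libraries, so single libraries were not screened as outliers.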

How the results depend on the processing

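No paired analysis was possible because the 54 hr group has 1 library and no replicate number. The main counts, 50 higher and 233 lower, became 79 and 516 with a pseudocount of 0.1, 18 and 68 with a pseudocount of 5, 31 and 148 with a mean of at least 5 TPM, 85 and 146 with quantile normalization (which also moves the balance of directions), 4 and 25 at 4-fold, and 104 and 482 against the mean of the 0 hr libraries. Leaving out one 0 hr library gave 89 to 195 higher and 356 to 805 lower. Limma over all 16 libraries, adjusted p under 0.05 with the lone 54 hr library assumed to vary like the replicated groups, called 22 higher and 93 lower, and 102 of the 283 genes called by fold were among them. With no filter the counts were 53 and 234, and with medians aligned 67 and 185. Quantile normalization and aligned medians moved the median difference of all genes from -0.08 to 0.03 and 0.02. Chosen after seeing the data, protein-coding genes alone gave 44 and 212, leaving out genes whose other 13 libraries separate by table gave 46 and 210, and leaving out the mitochondrial genome gave 50 and 215. Control counts stayed within 1.5 times under each setting run on them. Of the 64 genes named by rule, none changed direction under the 8 settings run on them. For pseudocounts, filters and left-out libraries this was fixed in advance, because each called gene lies on 1 side of both 0 hr libraries. Of the 64, 35 lost their call with a pseudocount of 5 and 14 with quantile normalization. With medians aligned 6 lost it (cut-2, ddn-1, flp-32, nhr-53, prg-1 and syp-4). The cause of these changes was not tested.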

Other observations

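A few genes differed widely between the 0 hr replicates, and again between the 20 hr replicates. The octopamine synthesis gene tbh-1 stood at 0.0665 and 54.6 TPM in replicates 2 and 3 at 0 hr and at 0.0807 and 43.5 TPM in replicates 2 and 3 at 20 hr. The RNAi libraries of 24, 36 and 54 hr had at most 0.0977 TPM of tbh-1, and controls had 121 to 358 TPM at 0 and 20 hr. Y51F10.7 showed the same split, with 19.8 and 112 TPM at 0 hr and 21.6 and 121 TPM at 20 hr, and ilys-3 the opposite one, with 63.9 and 11.8 TPM at 0 hr and 46.7 and 5.99 TPM at 20 hr. This did not extend to most genes: of the 461 genes at least 2-fold apart between the 0 hr replicates, 74 were that far apart in the same direction at 20 hr and 115 in the opposite direction. These genes were chosen after their values were seen.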
